A study of Homo sapiens with 2 samples.

Results

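Receptor tyrosine kinases other than the Eph receptors were examined in A2780 cells, a human ovarian carcinoma line, after selection for drug resistance. The 35 receptors were taken by gene name as members of this enzyme family, with earlier results of these data known, and they are read by 67 of the 41000 probes and are 35 of the 30238 gene names on the array. A2780CBN cells were selected in rising doses of carboplatin, and A2780CBNDXL cells in rising doses of carboplatin together with docetaxel. The sample labels give the final doses as 22.2 µM for A2780CBN and 8.02 µM for the combination, without saying to which drug the latter refers. In the text of the study this last figure is an inhibitory concentration, and selection ended at a lower dose. Each line was compared with a co-cultured control, A2780CC, which was carried alongside without the selecting drugs, and according to the methods a separate control culture was kept for each resistant line. Each line is a single selected population, whose RNA from 3 isolations went into 1 pool. That pool was hybridized with its control to 4 two-colour arrays, with both labelling directions on each of 2 slides, and the spread between arrays is technical. For this reason no test across samples was possible, and all values describe these 2 samples. A ratio from pooled RNA also cannot tell a change in the number of expressing cells from a change in RNA per cell.

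A receptor tyrosine kinase spans the cell membrane, binds a ligand with its outer part and phosphorylates tyrosines with its inner part. The phosphorylated tyrosines recruit adaptors, which pass the signal to the RAS-ERK and PI3K-AKT pathways, while ubiquitin ligases, phosphatases and Sprouty proteins turn it down again. ERBB2 and other members of the family are well known drug targets and growth drivers in carcinomas, and platinum or taxane resistance has often been studied together with their signalling.

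Values are given as processed signals in intensity units, or as log2 ratios of resistant line over control. When 4 values are listed they follow the order forward and reverse labelled array of slide 1, then forward and reverse labelled array of slide 2. A gene was judged if its probe was well above background on all 4 arrays in 1 channel or both, and it was called changed if the ratio had one sign throughout and averaged 1 or more in size (2-fold). Where every array of a line had one channel too dim, only a lower bound of the fold is given. SD is that of the 4 arrays. Probe positions are those of NCBI36, the build of the array files, and the exon structure of that build was not used here.

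Of the 35 receptors, 22 were bright enough to be judged in A2780CBN and 21 in A2780CBNDXL. In A2780CBN 8 of 22 receptors changed (36.4%), against 12.6% of all 17949 genes judged, with 5 higher (all genes 8.01%) and 3 lower (all genes 4.57%). In A2780CBNDXL 7 of 21 receptors changed (33.3%), against 17.0% of all 17119 genes judged, with 2 higher (all genes 7.72%) and 5 lower (all genes 9.24%). When background-subtracted signals were centred on the median instead, the higher share of all changed genes in A2780CBNDXL went from 45.5% to 31.2%. The counts also depended on the background correction. The normexp method, which models the background and adds an offset of 50 to both channels, gave 4 changed receptors in A2780CBN (ERBB4 at 2.37, ROR2 at 1.39, PDGFRB at 1.29 and PDGFRA at -1.09) and 3 in A2780CBNDXL (PDGFRA at 2.65, MERTK at -1.71 and ERBB2 at 1.07). With normexp 3.38% of all genes judged changed in A2780CBN and 6.86% in A2780CBNDXL. The median size of the log2 ratio was 0.83 over the receptors judged in A2780CBN and 0.74 in A2780CBNDXL, compared with 0.33 and 0.39 over all genes judged. Altogether 12 of the 23 receptors judged in at least 1 line changed in at least 1, and 3 of the 20 judged in both changed in both. For changes in at least 1 line the share of all genes was not counted. The insulin-like growth factor receptor IGF1R was lower in both lines, while PDGFRA and ROR2 changed in opposite directions (4.02% and 1.85% of the 16131 genes judged in both lines changed in the same and in opposite directions).

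**Figure D1:**
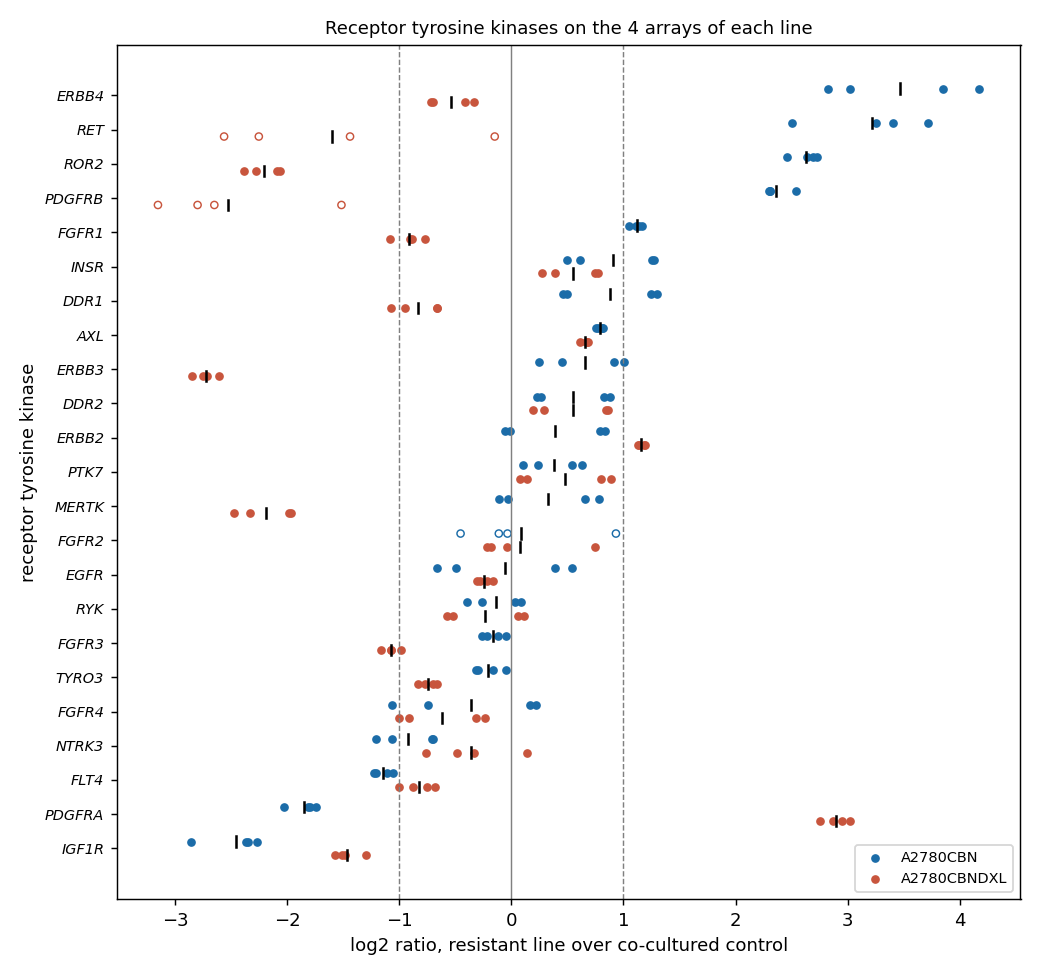
Log2 ratio of resistant line over co-cultured control (x axis) for the 23 receptor tyrosine kinases judged in at least 1 line (y axis, ordered by their value in A2780CBN). Each point is 1 of 4 arrays, black bars are means, open points mark a receptor too dim to be judged in that line, and dashed lines mark the 2-fold limits. PDGFRA lies near -1.85 in A2780CBN and 2.90 in A2780CBNDXL, and ROR2 near 2.63 and -2.21.

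The ERBB family showed a different member changed in each line. ERBB4, a receptor for neuregulins, was higher in A2780CBN only by the 2-fold rule, whereas in A2780CBNDXL ERBB2, the co-receptor that has no known ligand of its own, was higher and ERBB3, the kinase-impaired partner of ERBB2, was lower. The ERBB4 signal (probe at chr2:211948760-211948819) was 2424, 2627, 2125 and 3183 in A2780CBN and 342, 182, 262 and 176 in its control. Every A2780CBN value lay above every control value, and the log2 ratio was 3.47 ± 0.65 (11.1-fold). The ratio was larger on both reverse labelled arrays than on both forward labelled arrays. In A2780CBNDXL the ERBB4 signal was 307, 251, 281 and 215 against 387, 412, 374 and 349 in the control, a log2 ratio of -0.54 ± 0.20 that was below the limit. A second ERBB4 probe rose in A2780CBN as well, at least 4.50-fold, with the control too dim on every array.

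ERBB2 (chr17:35138355-35138414) gave 5829.7, 7046, 7489.5 and 8657 in A2780CBNDXL and 2676, 3102, 3400.2 and 3799 in its control. All line values exceeded all control values, and the log2 ratio was 1.16 ± 0.03 (2.23-fold). Its second probe gave 1.04 ± 0.23. Background-subtracted signals centred on the median gave an ERBB2 value just under the limit, at 0.94. In A2780CBN the ERBB2 log2 ratio was 0.39 ± 0.49, with values near 0 on the forward labelled arrays. ERBB3 (chr12:54782427-54782486) fell in A2780CBNDXL, where the signal was 56.3, 47.4, 53.7 and 29.2 against 343, 319, 353 and 209.6. The line values were all below the control values, the line channel was well above background on 3 of 4 arrays, and the log2 ratio was -2.73 ± 0.10 (6.63-fold lower). With normexp correction the ERBB3 value was -0.91 and no longer passed the limit. In A2780CBN the ERBB3 log2 ratio was 0.65 ± 0.37. The other ERBB3 probe was too dim in every channel, so these values rest on 1 probe. EGFR, the receptor for epidermal growth factor, was dim in both lines (53.1 to 82.5 in A2780CBN and 89.9 to 147 in A2780CBNDXL), with log2 ratios of -0.06 ± 0.61 and -0.24 ± 0.06.

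Of the PDGF receptors, PDGFRA was lower in A2780CBN and higher in A2780CBNDXL, and PDGFRB was higher in A2780CBN. Both bind platelet-derived growth factors and are best known from mesenchymal cells. PDGFRA (chr4:54858746-54858805) fell in A2780CBN, with signals of 404, 349.9, 242 and 288 against 1351, 1219, 986 and 1015 in the control. No line value reached a control value, and the log2 ratio was -1.85 ± 0.12 (3.60-fold lower). In A2780CBNDXL the PDGFRA signal was 7912, 10283, 7221 and 6512 against 1026, 1521, 892 and 891. Here all line values were far above the control, and the log2 ratio was 2.90 ± 0.11 (7.45-fold). The second PDGFRA probe was too dim in every channel.

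PDGFRB (chr5:149473657-149473716) rose in A2780CBN, from 193, 186, 203 and 186 in the control to 950.0, 918, 1005 and 1084 in the line. The groups did not overlap, and the log2 ratio was 2.36 ± 0.12 (5.15-fold). In A2780CBNDXL PDGFRB was not judged, because the line was well above background on 2 arrays and the control on 3. Its signals there were 24.1, 49.8, 39.5 and 32.7 in the line and 68.8, 313, 275 and 291 in the control. The line was dimmer on every array, with a log2 ratio of -2.53 ± 0.71, and without the first array it passed the rule at -2.85. On this first array several probes, FGFR1 and DDR1 among them, were dimmer in both channels than on the other 3 arrays. The remaining members of this family, KIT, CSF1R and FLT3, which are the receptors of stem cell factor, colony stimulating factor and FLT3 ligand in blood cells, were not well above background in either channel of any array.

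Markers of fibroblasts, the cells in which PDGF receptors are best known, also differed. Of the 4 fibroblast genes followed, DCN and LUM were higher in both lines, COL1A1 was higher in A2780CBNDXL and COL1A2 was lower in both. Their summed signal was 642 to 803 in A2780CBN against 1614 to 1986 in its control, and 7543 to 9262 in A2780CBNDXL against 6725 to 8297 in its control. The lower sum in A2780CBN came from COL1A2, with mean signals of 30.9 in the line and 1534 in the control. COL1A1 was above the control on every array there, at 0.99 ± 0.08, just under the limit. The controls differed too, with COL1A2 and DCN higher in that of A2780CBNDXL by 2.03 ± 0.10 and 2.83 ± 0.56 on the log2 scale. None of the 4 fibroblast genes was at background throughout, and their part in the PDGF receptor values was not tested. Of 9 epithelial and ovarian markers, KRT8, KRT18 and PAX8 were well above background on all arrays in both channels, whereas KRT7, CDH1, WT1 and MUC16 were not on any. EPCAM rose in both lines and KRT18 in A2780CBN, and the summed signal of the 9 was 3683 to 4161 in A2780CBN against 2224 to 2345 in its control, and 3241 to 4258 in A2780CBNDXL against 2279 to 2872. Of 3 endothelial markers, PECAM1 and CDH5 were too dim throughout and VWF was well above background on some arrays. Of 4 blood cell markers, PTPRC was too dim throughout, CD14 and CD68 were well above background on all arrays in both channels without a call, and CD34 was so on 3 arrays of A2780CBNDXL only. The part of these markers in the receptor values was not tested.

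ROR2, a WNT5A-binding receptor, also changed in opposite directions. Its signal (chr9:93525288-93525347) was 941, 949, 870.1 and 931 in A2780CBN against 171, 147, 139.7 and 141 in the control. All line values lay far above the control, with a log2 ratio of 2.63 ± 0.12 (6.18-fold). A2780CBNDXL gave 44.5, 39.2, 41.0 and 28.3 against 216, 167, 172 and 148. The line values were all below the control, although the line was well above background on only 2 arrays, and the log2 ratio was -2.21 ± 0.15 (4.62-fold lower). A normexp correction reduced this to -0.56, below the limit. The second ROR2 probe rose at least 3.18-fold in A2780CBN and was not well above background in A2780CBNDXL or its control. ROR1 was too dim in both lines and their controls. RYK and PTK7, which also take part in WNT signalling, were bright and near the control, with log2 ratios of -0.14 ± 0.23 and 0.38 ± 0.25 in A2780CBN and of -0.23 ± 0.37 and 0.47 ± 0.43 in A2780CBNDXL.

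RET, the signalling receptor for GDNF family ligands, rose in A2780CBN from background. The RET signal (chr10:42945260-42945319) was 135, 136, 95.1 and 121 in the line and 23.8, 12.8, 7.23 and 12.7 in the control. No array had the control well above background, and the difference is therefore at least 5.25-fold, with a measured log2 ratio of 3.22 ± 0.52. A second RET probe was not judged, being well above background on 3 of 4 arrays of A2780CBN and on none of the control. With the normexp correction the first probe gave 0.37, below the limit. In A2780CBNDXL RET was too dim to be judged, with signals of 7.23 to 26.2 in the line and 29.1 to 48.6 in the control. The line was dimmer on every array, with a log2 ratio of -1.60 ± 1.08, and without the first array RET passed the rule as lower.

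**Figure D2:**
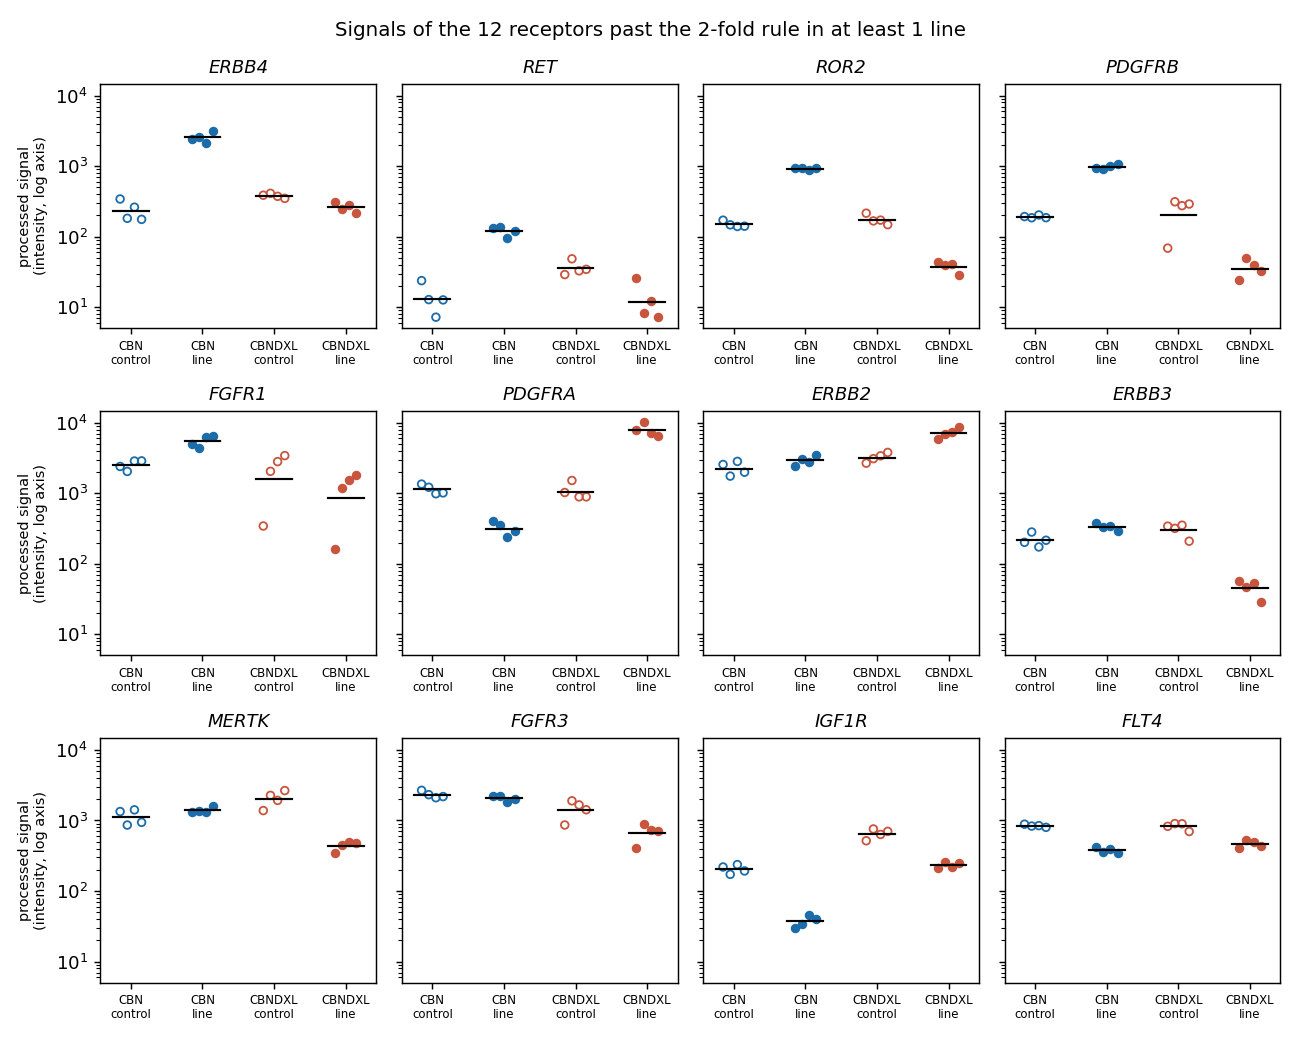
Processed signal (y axis, intensity units on a log scale) of the 12 receptors that changed in at least 1 line. Each point is 1 of 4 arrays, open points are the co-cultured control, filled points the resistant line, and black bars geometric means. PDGFRA lies below its control in A2780CBN (3.60-fold) and above it in A2780CBNDXL (7.45-fold), and ROR2 the reverse.

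Promoter sequences of the receptors that rose together in A2780CBN (ERBB4, RET, ROR2 and PDGFRB) and of PDGFRA, which fell there, are shown so that they can be set side by side. They are the 250 bases before the RefSeq start on GRCh38.p14, read 5′ to 3′ on the strand of the gene, with capitals marking the GC box GGGCGG, which SP1-type factors bind and which reads CCGCCC on the other strand, and the CCAAT box, which reads ATTGG there. A GC box was found in 42.6% and a CCAAT box in 32.0% of the 35116 RefSeq promoters of this length. RefSeq promoters were at hand for 32 of the 35 receptors, and not for ERBB3, FGFR1 and FLT4.
ERBB4, chr2:212538803-212539052 (- strand): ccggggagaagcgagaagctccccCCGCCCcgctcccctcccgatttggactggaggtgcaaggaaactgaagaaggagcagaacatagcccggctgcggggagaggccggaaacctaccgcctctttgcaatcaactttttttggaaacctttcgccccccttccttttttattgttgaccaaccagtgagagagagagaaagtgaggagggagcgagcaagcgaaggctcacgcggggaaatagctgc
RET, the first of 2 starts, chr10:43076819-43077068 (+ strand): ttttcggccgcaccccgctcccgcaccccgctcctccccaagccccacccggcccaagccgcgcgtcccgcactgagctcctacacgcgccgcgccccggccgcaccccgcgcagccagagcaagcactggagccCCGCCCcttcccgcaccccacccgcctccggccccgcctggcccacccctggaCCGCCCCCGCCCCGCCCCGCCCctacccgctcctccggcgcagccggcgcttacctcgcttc
ROR2, chr9:91950229-91950478 (- strand): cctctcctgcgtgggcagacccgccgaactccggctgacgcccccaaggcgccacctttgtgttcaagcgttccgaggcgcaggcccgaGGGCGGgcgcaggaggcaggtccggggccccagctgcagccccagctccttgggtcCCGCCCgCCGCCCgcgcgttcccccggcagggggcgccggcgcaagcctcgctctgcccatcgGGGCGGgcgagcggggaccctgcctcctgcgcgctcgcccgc
PDGFRB, chr5:150155846-150156095 (- strand): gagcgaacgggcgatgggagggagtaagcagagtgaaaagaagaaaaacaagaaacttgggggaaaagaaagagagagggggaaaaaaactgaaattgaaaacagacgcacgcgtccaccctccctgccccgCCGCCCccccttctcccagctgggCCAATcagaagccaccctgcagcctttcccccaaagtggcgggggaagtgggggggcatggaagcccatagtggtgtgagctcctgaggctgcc
PDGFRA, first start, chr4:54229043-54229292 (+ strand): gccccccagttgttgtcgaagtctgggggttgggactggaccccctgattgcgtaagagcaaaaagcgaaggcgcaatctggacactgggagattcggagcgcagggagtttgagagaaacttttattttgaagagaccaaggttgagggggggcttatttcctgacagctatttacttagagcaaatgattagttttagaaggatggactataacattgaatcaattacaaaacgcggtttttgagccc
PDGFRA, second start, chr4:54233710-54233959 (+ strand): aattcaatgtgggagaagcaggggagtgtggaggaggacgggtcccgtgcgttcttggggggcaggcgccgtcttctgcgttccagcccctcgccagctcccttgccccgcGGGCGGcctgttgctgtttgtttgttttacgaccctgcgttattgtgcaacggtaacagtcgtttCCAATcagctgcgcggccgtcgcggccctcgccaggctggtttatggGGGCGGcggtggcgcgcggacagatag

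The RET and ROR2 windows, with 5 and 4 GC boxes, were 79.6% and 78.0% G and C. ERBB4 and PDGFRB, which rose with them in A2780CBN, held 1 GC box each at 57.2% and 58.4% G and C. PDGFRA had none at its first start (46.8% G and C) and 2 GC boxes at its second (64.0%), and PDGFRB and the second PDGFRA start each held 1 CCAAT box. Of the 58 promoters of these 32 receptors, 33 held a GC box and 17 a CCAAT box.

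Of the FGF receptors, FGFR1 was higher in A2780CBN and FGFR3 lower in A2780CBNDXL. FGFR1, a receptor for many fibroblast growth factors, gave 4979, 4420.3, 6323 and 6488 in A2780CBN against 2403, 2043, 2869 and 2884 in the control. Line and control did not overlap, and the log2 ratio of 1.12 ± 0.05 (2.17-fold) was just above the limit. It fell below it with normexp correction (0.98), with background-subtracted signals centred on the median (0.85) and in the mean over its 6 probes (0.88). In A2780CBNDXL the same probe gave -0.91 ± 0.13, lower than the control on every array but within the limit, which it passed at -1.12 with background-subtracted signals centred on the median. The FGFR1 probes disagreed there. One fell at least 1.66-fold, though in A2780CBN it gave -0.04 ± 0.18, and the highest gave 0.19 ± 0.65. In A2780CBN the 4 probes that changed gave 1.02 to 1.18.

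FGFR3 (chr4:1780161-1780220) fell in A2780CBNDXL, where the signal was 409.7, 903, 743 and 717 against 864, 1901, 1663 and 1419. It was lower than the control on each array, though the ranges of the groups overlapped, with the first array dimmest in both channels. The log2 ratio was -1.07 ± 0.07 (2.11-fold lower), which normexp correction brought to -0.87 and the mean over both probes to -0.62, and which did not pass in the 3-way ANOVA. A second FGFR3 probe gave -0.17 ± 1.01. In A2780CBN FGFR3 was near the control at -0.16 ± 0.10. FGFR4 had log2 ratios of -0.36 ± 0.65 and -0.62 ± 0.40, and FGFR2 was dim, judged in A2780CBNDXL alone at 0.08 ± 0.45.

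**Figure D3:**
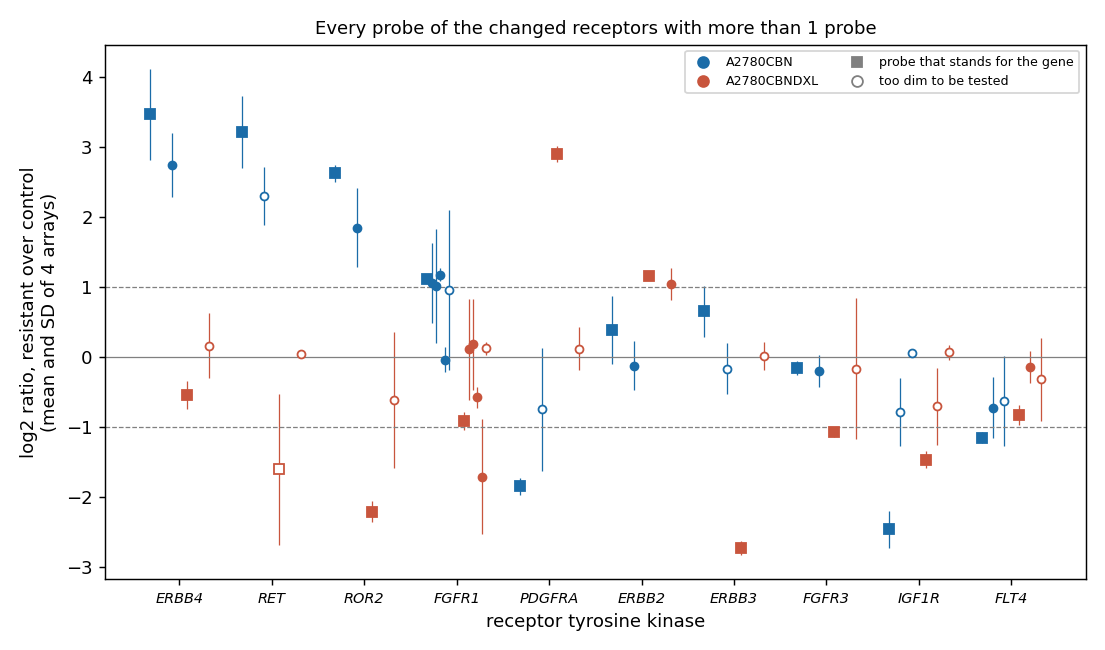
Log2 ratio of resistant line over control (y axis, mean and SD of 4 arrays) for every probe of the changed receptors that have more than 1 probe (x axis). Squares are the brightest probe, which stands for the gene, circles are the other probes, and open symbols were too dim to be judged. Both ERBB4 and both ROR2 probes lie above the upper limit in A2780CBN, whereas the 6 FGFR1 probes in A2780CBNDXL spread on both sides of 0.

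MERTK was the changed member of the TAM family, the receptors of GAS6 and protein S. In A2780CBNDXL the MERTK signal (chr2:112503305-112503394) was 350.4, 451, 493 and 479 against 1382, 2269.5, 1926 and 2657 in the control. All line values were below all control values, with a log2 ratio of -2.19 ± 0.25 (4.55-fold lower). A2780CBN gave 0.32 ± 0.46, with the forward labelled arrays near 0 and the reverse labelled arrays above it. AXL, a TAM receptor often linked to drug resistance, had the smallest spread between arrays of all 35 receptors in both lines and was above its control on all arrays. Its log2 ratio was 0.79 ± 0.03 in A2780CBN and 0.66 ± 0.03 in A2780CBNDXL, both under the 2-fold limit. TYRO3, the remaining member, gave -0.21 ± 0.12 and -0.74 ± 0.07.

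IGF1R was the one receptor that was lower by the rule in both lines. IGF1R binds insulin-like growth factors and shares signalling with the insulin receptor INSR. The signal (chr15:97324889-97324948) was 30.2, 33.9, 46.0 and 39.9 in A2780CBN against 219, 172, 237 and 193 in its control. A2780CBNDXL gave 211, 255, 223 and 250.1 against 516, 758, 634 and 701 in its control. Each line lay below its own control, with log2 ratios of -2.46 ± 0.27 (5.50-fold lower) and -1.47 ± 0.12 (2.76-fold lower). The controls themselves differed, however, and against the control channel of the A2780CBN arrays the value of A2780CBNDXL was 0.13. Neither value passed with normexp correction (-0.65 and -0.92), nor did that of A2780CBNDXL in the mean over its 3 probes (-0.70). The other IGF1R probes in that mean were too dim to be judged in either line, so both calls rest on the brightest probe alone. INSR went the other way without reaching the limit, with 0.91 ± 0.41 in A2780CBN and 0.55 ± 0.25 in A2780CBNDXL.

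FLT4, the VEGF-C receptor known from lymphatic vessels, was lower in A2780CBN. Its signal (chr5:179968651-179969561) was 426, 357, 391 and 347 against 886, 834, 846 and 799.9 in the control. The groups were apart, with a log2 ratio of -1.15 ± 0.08 (2.22-fold lower), which was -0.66 with normexp correction and -0.84 in the mean over its 3 probes. In A2780CBNDXL FLT4 gave -0.83 ± 0.14, again lower on all arrays but within the limit. A second FLT4 probe, well above background throughout, gave -0.72 ± 0.44 in A2780CBN and -0.14 ± 0.23 in A2780CBNDXL, both within the limit. The receptors of blood vessel endothelium, KDR, TEK and TIE1, were too dim in every channel, and FLT1 was well above background on 2 arrays of A2780CBNDXL and its control only.

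The collagen receptors DDR1 and DDR2 did not pass the rule. DDR1 gave 0.88 ± 0.46 in A2780CBN and -0.84 ± 0.21 in A2780CBNDXL, above the control on all arrays of the former and below it on all of the latter. Background-subtracted signals centred on the median took the A2780CBNDXL value past the limit, to -1.11. Its other probes in A2780CBNDXL gave -0.20 ± 0.58 and -0.07 ± 0.98. DDR2 gave 0.55 ± 0.35 and 0.55 ± 0.36, above the control on every array. Of the neurotrophin receptors, NTRK3 had log2 ratios of -0.92 ± 0.26 and -0.36 ± 0.38, and NTRK2 was too dim to be judged. The brightest probe of the HGF receptor MET was too dim on every array of A2780CBN and its control, and another of its 3 probes was well above background on 1 array of that line. In A2780CBNDXL and its control the brightest probe reached that level on 3 of 4 arrays each, with signals of 36.9 to 59.0 and 20.5 to 58.2. MST1R was dim in both comparisons and ALK at background, so that 12 receptors in all could be judged in neither line.

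To see which side of a ratio moved, the resistant channels of both lines were compared directly on arrays of the same slide and dye, and likewise their control channels. Of 23 receptors judged, 12 differed at least 2-fold between A2780CBNDXL and A2780CBN, with 3 higher and 9 lower in A2780CBNDXL (all genes 16.6%, 6.47% higher and 10.1% lower). Between the controls 2 of 22 differed, both higher in that of A2780CBNDXL (all genes 4.60%, 3.16% higher and 1.44% lower). PDGFRA was higher in A2780CBNDXL than in A2780CBN by 4.50 ± 0.15 on the log2 scale, while its controls differed by -0.24 ± 0.20. ROR2 and PDGFRB were lower by a similar amount, with differences of -4.68 ± 0.37 and -4.88 ± 0.36 against 0.15 ± 0.24 and 0.01 ± 0.91 between the controls. For PDGFRA and ROR2 the separation therefore lay in the resistant channels. For PDGFRB it lay mostly there, at -5.13 to -4.36 over the array pairs, while the controls ranged from -1.32 to 0.60. The A2780CBNDXL channel of ROR2 and PDGFRB was well above background on only 2 arrays. RET was well above background in A2780CBN and on no array of A2780CBNDXL, and is counted among the lower ones. ERBB4 (-3.38), ERBB3 (-2.95), FGFR1 (-2.82), MERTK (-1.79), FGFR3 (-1.78) and DDR1 (-1.10) were lower in A2780CBNDXL as well, and ERBB2 was higher (1.09). Between the controls, ERBB4, ERBB3 and ERBB2 differed by 0.63 ± 0.39, 0.43 ± 0.53 and 0.32 ± 0.36. MERTK and DDR1 differed there by 0.72 ± 0.63 and 0.62 ± 0.76, and FGFR1 by -0.79 ± 1.25. The FGFR3 control was lower on every array pair, by -0.87 ± 0.45, so its separation was not in the resistant channels alone. The other DDR1 probes differed by -0.65 ± 0.18 and -0.75 ± 0.38 between the lines, within the limit.

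IGF1R differed in both channels. It was higher in A2780CBNDXL than in A2780CBN by 2.59 ± 0.36, and its control was higher by 1.59 ± 0.36. EGFR was the other receptor that differed between the controls, by 1.01 ± 0.57, with 0.82 ± 0.21 between the lines. The FGFR1 difference ranged from -4.78 to -2.01 over the 4 array pairs, its size being largest in the pair with the dim first array.

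**Figure D4:**
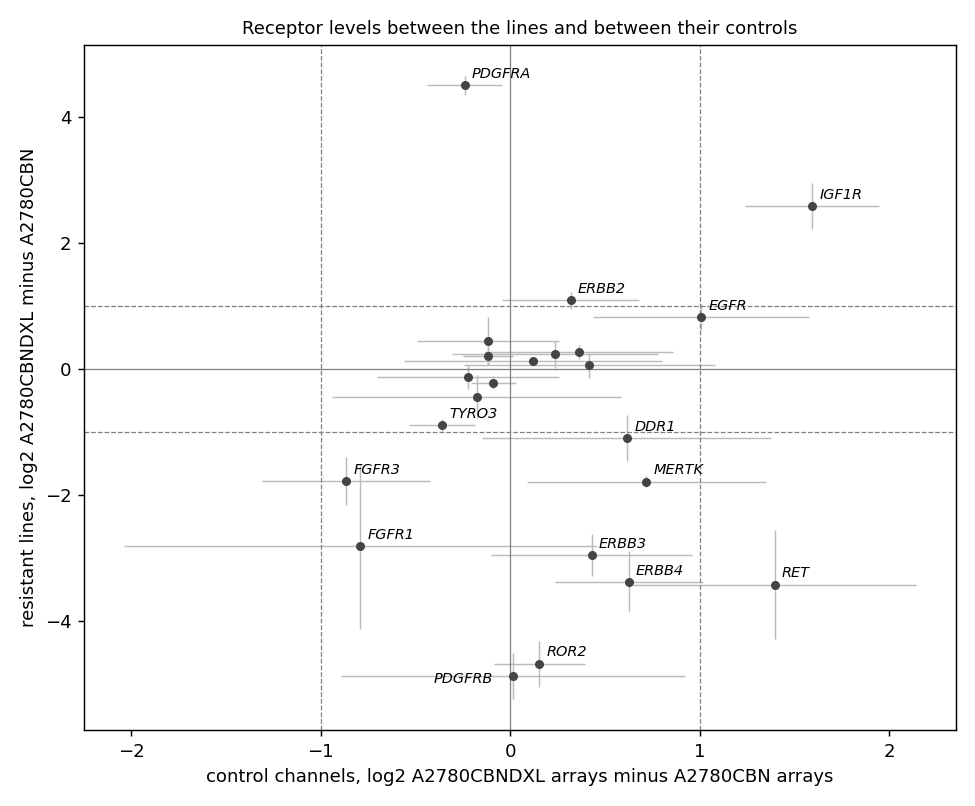
Difference between A2780CBNDXL and A2780CBN in their resistant channels (y axis) and in their control channels (x axis), in log2 units after scaling between arrays, for the 23 receptors judged. Points are means and bars SD over 4 array pairs, and dashed lines mark 2-fold. PDGFRA (4.50), ROR2 (-4.68) and PDGFRB (-4.88) lie far from 0 on the y axis and near 0 on the x axis, while IGF1R is above 1 on both. RET was too dim to be judged between the controls.

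Ligands and co-receptors of these receptors changed in 11 of 42 cases in A2780CBN (26.2%; 5 higher, 6 lower) and in 17 of 39 in A2780CBNDXL (43.6%; 5 higher, 12 lower), compared with 12.6% and 17.0% of all genes. Their median log2 ratio was 0.00 and -0.20, against -0.06 and 0.04 over all genes. FGF20, a ligand of FGF receptors, fell in both lines to where no array had it well above background, by at least 17.7-fold in A2780CBN and at least 43.0-fold in A2780CBNDXL. VEGFC, the ligand of FLT4, fell in both, with -4.49 ± 0.63 and -3.46 ± 0.43, and was still well above background on 2 and 3 arrays of the lines. PDGFC, a ligand of PDGFRA, rose in both, with 3.04 ± 0.35 in A2780CBN and 5.76 ± 0.43 in A2780CBNDXL. PTN, a heparin-binding growth factor linked to ALK, fell at least 4.89-fold in A2780CBN and by 2.22 in log2 ratio in A2780CBNDXL, and FGF23 fell at least 3.00-fold and 8.12-fold.

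Several further ligands from the same list were picked after their values were seen, and a link between ligand and receptor values was not tested. FGF18 was lower in A2780CBN (-1.80 ± 0.21) and higher in A2780CBNDXL (2.86 ± 0.10). PDGFA fell at least 5.03-fold in A2780CBNDXL, where PDGFRA was high, and gave 0.71 ± 0.44 in A2780CBN. Among ERBB ligands NRG2, a neuregulin, rose in A2780CBN (2.64 ± 0.73), where ERBB4 was high, and was too dim to be judged in A2780CBNDXL. GAS6, the TAM ligand, rose in A2780CBN (2.37 ± 0.19) and gave 0.25 ± 0.51 in A2780CBNDXL. HGF, the ligand of MET, fell in A2780CBNDXL (-1.92 ± 0.07). For RET, none of the ligands GDNF, NRTN and ARTN passed the rule in either line.

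Inside the cell, adaptors and inhibitors of receptor signalling changed in 6 of 43 cases in A2780CBN (14.0%; 2 higher, 4 lower) and in 15 of 39 in A2780CBNDXL (38.5%; 3 higher, 12 lower), with median log2 ratios of -0.11 and 0.02. Over all genes 12.6% and 17.0% changed, so that the A2780CBN share was near that of all genes. The feedback inhibitors and phosphatases among them accounted for 10 of the 15 in A2780CBNDXL, with 2 higher and 8 lower of 19 judged, and for 2 of 18 judged in A2780CBN (1 higher, 1 lower). CBLB, a ubiquitin ligase that marks active receptors for breakdown, rose in A2780CBN (2.00 ± 0.12) and fell in A2780CBNDXL (-2.61 ± 0.11). SOCS2 and SOCS3, suppressors of cytokine signalling, fell in A2780CBNDXL by 6.03 and 4.35 on the log2 scale, and gave -0.39 ± 0.42 and -0.32 ± 0.30 in A2780CBN. PTPRJ, a receptor phosphatase, fell in A2780CBNDXL (-2.74 ± 0.23). LRIG3, of a family of transmembrane modulators of ERBB receptors, rose there at least 10.6-fold from background. In A2780CBN the insulin receptor substrate IRS2 rose (1.99 ± 0.58), and the adaptors GRB14 (-1.80 ± 0.26) and DOK3 (-1.50 ± 0.12) fell.

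Genes that the ERK pathway is known to induce changed in 7 of 20 cases in A2780CBN (35.0%; 3 higher, 4 lower) and in 9 of 21 in A2780CBNDXL (42.9%), where all 9 were lower. Over all genes 12.6% changed in A2780CBN, 4.57% being lower, and 17.0% in A2780CBNDXL, 9.24% being lower. Their median log2 ratio was -0.27 in A2780CBN and -0.64 in A2780CBNDXL. EGR1 and EGR2, immediate early transcription factors, were higher in A2780CBN (1.28 ± 0.43 and 2.02 ± 0.65) and lower in A2780CBNDXL (-1.36 ± 0.43 and -1.77 ± 0.34). FOSL1, an AP-1 subunit, rose in A2780CBN (1.31 ± 0.66). The Sprouty gene SPRY4 fell in both (-1.35 ± 0.50 and -1.13 ± 0.33), as did the ERK phosphatase gene DUSP5 (-1.03 ± 0.16 and -1.62 ± 0.30). ETV1 (-2.01 ± 0.10) and the inhibitor SPRED1 (-1.81 ± 0.19) fell in A2780CBNDXL. SPRY4 and SPRED1 are counted among the inhibitors too. Of the ERK output genes, normexp correction gave 1 changed gene in A2780CBN and 6 in A2780CBNDXL, while 3.38% and 6.86% of all genes judged changed with it.

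**Figure D5:**
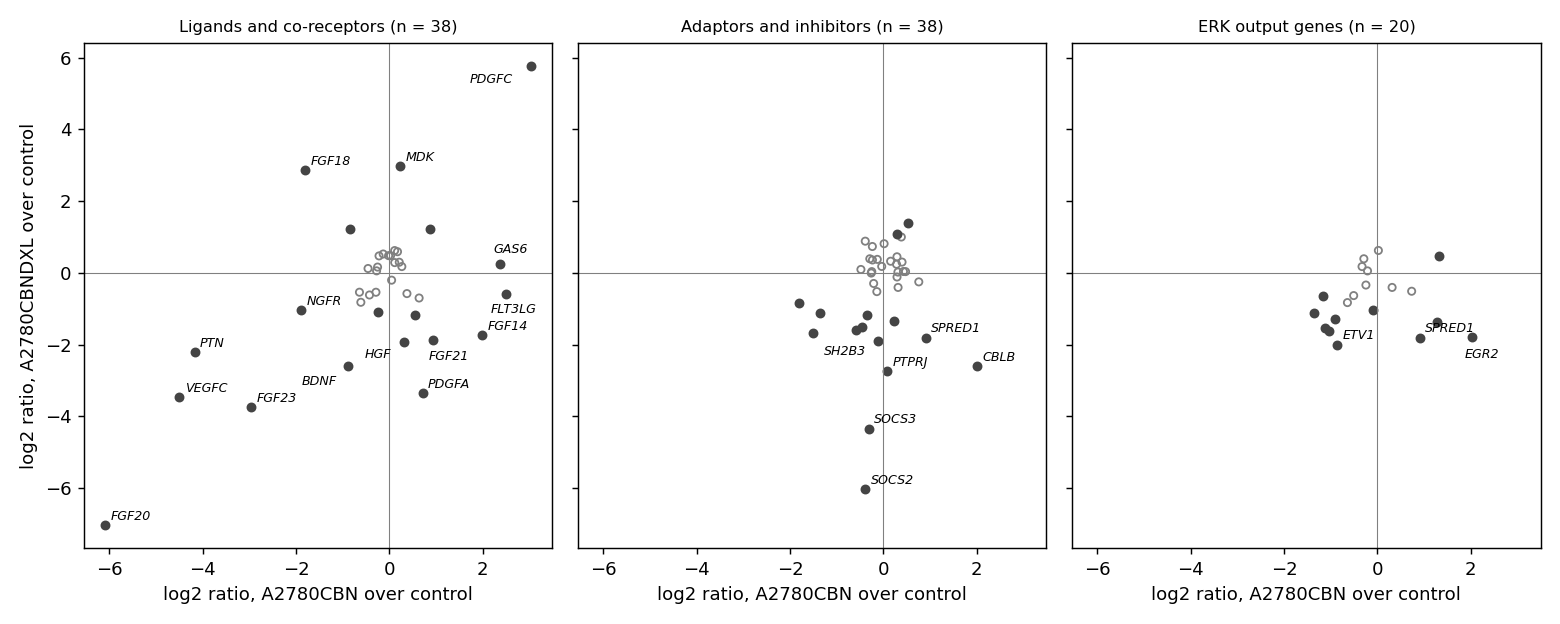
Log2 ratio in A2780CBN (x axis) and in A2780CBNDXL (y axis), each over its own control, for the ligands and co-receptors (38), adaptors and inhibitors (38) and ERK output genes (20) judged in both lines. Filled points changed in at least 1 line and those over 1.8 in size in either line are named. FGF20 and PDGFC lie at opposite corners of the first panel, and SOCS2 and SOCS3 at the bottom of the second.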

How the data were processed

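Expression was measured in 2 cell line samples on Agilent two-colour arrays, 4 arrays per sample, without replicate cultures. The authors deposited Feature Extraction output (version 10.7.1.1 for slide 1, 10.7.3.1 for slide 2), in which the processed intensity of each channel is background-subtracted and dye-normalized, with surrogate values near background. The deposited background-subtracted and raw mean intensities served alternatives only. On each array 59.8% to 67.5% of spots per channel were well above background, and none was saturated. The A2780DXL arrays were not analysed here.

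Directions rest on the labels of the forward arrays, which give the control as Cy3 and the resistant line as Cy5. Dye entries of the reverse arrays repeat this and conflict with their name and with the methods, so these arrays were turned over as named, after which the log2 ratios of opposite labellings within a line correlated at 0.58 to 0.74. Arrays of the same labelling within a line correlated more closely, at 0.85 to 0.90. Outlier spots were left out and ratios averaged within each labelling direction, then over both. A gene was represented by its brightest probe. Lower bounds and comparisons between lines used channels scaled by limma's Aquantile method.

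The receptors and lists were chosen with earlier results of these data known. By rule, all receptors are accounted for, with most detail for those that changed and those with high signals, and each other list gives up to 4 changed genes per line, by size. The further ligands that were picked after their values were seen go beyond this rule. Alternatives were normexp (offset 50) with loess, median centring, other probe, dim-spot and fold limits, single arrays or slides, the 3-way ANOVA of the methods and limma (adjusted p limit 0.05, covering labelling and hybridization error only), and the control channel of the other line. The steps were tested on simulated data. Python 3.11.15, numpy 2.4.6, pandas 2.3.3, R 4.3.3 and limma 3.58.1 were used.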

Additional observations from a re-analysis of the deposited data

Results flagged for a closer look

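Among the 35 receptors PDGFRA and ROR2 stood out because each was called higher for 1 line and lower for the other. A sign shared by all arrays of a line and reversed in the other line was not particular to them. ERBB3, ERBB4, FGFR1, DDR1, PDGFRB and RET also had it, as did MET and ROR1, which were too dim to be judged in either line. None of these was called changed in both lines. The PDGFRA log2 ratio was -1.85 in A2780CBN and 2.90 in A2780CBNDXL, and that of ROR2 was 2.63 and -2.21. With 1 sample per line the difference between the lines was not tested.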

How the results depend on the processing

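Counts below are for A2780CBN first and A2780CBNDXL second. Against 8 and 7 changed receptors, normexp with loess left 4 and 3, a 1.5-fold limit gave 13 and 13, and a 3-fold limit left 4 in A2780CBNDXL. Of all genes, 2259 and 2902 became 607 and 1175 with normexp, 4868 and 5713 at 1.5-fold, and 1127 and 1471 at 3-fold. Normexp adds an offset of 50 to both channels, which by construction shrinks the ratios of dim probes. It also left 1 and 1 of the other receptor tyrosine kinases (2 and 2), 5 and 8 ligands and co-receptors (11 and 17), 2 adaptors and inhibitors (6) and 1 ERK output gene (7), the last pair in A2780CBN. The 1.5-fold limit gave 21 ligands, 10 adaptors and 12 ERK output genes in A2780CBN. At 3-fold there were 1 and 1 other receptors, 3 and 8 adaptors (6 and 15) and 1 and 4 ERK output genes (7 and 9). Requiring both channels above background left 5 and 9 ligands. The mean over probes left 6 and 5 of the 35 receptors changed, without FGFR1 and FLT4 in A2780CBN and FGFR3 and IGF1R in A2780CBNDXL, and 1 and 1 other receptors, and the control channel of the other line likewise 1 and 1. Centring background-subtracted signals moved the median of all genes to -0.19 and -0.16, and under it FGFR1 in A2780CBN and ERBB2 in A2780CBNDXL no longer passed, while FGFR1 and DDR1 in A2780CBNDXL newly did. The direction of IGF1R in A2780CBNDXL reversed with the control channel of the other line (0.13), and no other changed receptor reversed under any alternative run. Leaving out 1 array gave 8 to 9 and 7 to 9 changed receptors, 2290 to 2335 and 2909 to 3196 genes, 11 to 12 receptors that differ between the lines, 11 to 11 and 16 to 18 ligands, 6 to 6 and 15 to 18 adaptors, 6 to 7 and 9 to 9 ERK output genes, and 2 to 2 other receptors in each line. All 15 receptor changes passed on each slide alone. With the ANOVA 14 of 15 did, without FGFR3 in A2780CBNDXL, and with limma all 15, slide as a block included. No paired analysis was possible because each line is 1 sample. The number of arrays limits the precision.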

Other observations

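Beyond the 35 receptors, 9 other receptor tyrosine kinases were followed, of which 6 could be judged in A2780CBN and 5 in A2780CBNDXL. STYK1, a kinase with little outer domain, rose in A2780CBN (2.21 ± 0.20) and gave -0.19 ± 0.14 in A2780CBNDXL. LTK, the nearest relative of ALK, rose in A2780CBNDXL (2.55 ± 0.31), where ALK itself was at background, and gave 0.56 ± 0.11 in A2780CBN. AATK, of the LMTK family, was higher in A2780CBN (1.56 ± 0.27) and lower in A2780CBNDXL (-1.27 ± 0.17).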
